A study of Mus musculus with 12 samples.

Results

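A set of 36 genes that mark the subtypes of cortical neurons were followed through scratch injury and TGF-β1 treatment of cultured mouse neurons. They were the 36 of 37 listed names that matched a gene in the deposited table of 55901 genes, and the remaining name, Ctip2-none, is a placeholder that matched no gene. Of the 36 genes, 20 were grouped as excitatory, for projection neurons or their progenitors, and 15 as inhibitory, for interneurons and their lineage. Rbfox3 marks neurons of all kinds. Expression was given as FPKM, fragments scaled to gene length and sequencing depth, so that levels can be compared between genes of different length.

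The libraries came from primary cortical neurons of neonatal C57BL/6J mice, isolated by papain digestion of cortex without hippocampus and treated with arabinosylcytosine, which blocks DNA synthesis and limits glial growth. Control cultures stayed uninjured, Trauma cultures were scratched with a needle 24 h before collection, and cultures labelled Tra_TGF (Trauma+TGF-β1) received both the scratch and TGF-β1 at 10 ng/mL for those 24 h. Each group held 4 libraries of polyA RNA. All groups shared the strain, the culture and the arabinosylcytosine, and there was no group with TGF-β1 and no scratch. Nothing in the labels ties a library to a culture or litter, and the methods text speaks of fewer samples than the 12 libraries in the table, so the p-values below measure the spread between these libraries, which may be technical.

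Excitatory projection neurons of the cortex arise from dorsal progenitors that express Emx1 and Lhx2, pass through a stage that expresses Eomes, and settle as deep-layer neurons (Tbr1, Bcl11b, Fezf2) or upper-layer neurons (Cux1, Cux2 and the Pou3f factors). Inhibitory interneurons arise in the ventral forebrain under the Dlx factors, use GABA made by the products of Gad1 and Gad2, and divide into a line from the medial ganglionic eminence (MGE: Nkx2-1, Lhx6, Sox6, Maf) and a line from the caudal ganglionic eminence (CGE: Prox1, Vip, Htr3a). TGF-β1 is a secreted cytokine whose receptors activate Smad proteins, which bind short DNA elements that contain the letters CAGAC.

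Of the 35 tested identity genes, 7 were downregulated in Tra_TGF against Trauma (20.0%), where 7.71% of all tested genes were. DNA next to the start sites of 3 of them is shown as a description. Of these 3, Lhx2 and Dlx2 no longer passed after the correction for GC content given below (adjusted p in limma 0.0778 and 0.223). Whether Smad proteins act on these genes was not tested. The sequences are the 200 bases before a start site in RefSeq (GRCm38.p6), 5′ to 3′ on the strand of the gene, in lower case with CAGAC or its reverse complement GTCTG in capitals. The stretches shown lie at chr1:42695568-42695767 (Pou3f3, plus strand), chr2:38339081-38339280 (Lhx2, plus strand, the upstream one of its 2 entries) and chr2:71546755-71546954 (Dlx2, minus strand). The stretches of Emx1 (chr6:85187731-85187930), Dlx1 (chr2:71529245-71529444) and the downstream Lhx2 entry (chr2:38351108-38351307) share bases with exons in the GENCODE annotation and are not printed. In that annotation the starts of these genes lie further upstream. Pou3f1 and Maf had no entry.
Pou3f3: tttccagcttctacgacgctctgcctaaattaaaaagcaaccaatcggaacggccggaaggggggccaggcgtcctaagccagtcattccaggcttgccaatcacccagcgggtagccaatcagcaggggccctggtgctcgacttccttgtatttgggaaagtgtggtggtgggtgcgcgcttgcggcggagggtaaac
Lhx2: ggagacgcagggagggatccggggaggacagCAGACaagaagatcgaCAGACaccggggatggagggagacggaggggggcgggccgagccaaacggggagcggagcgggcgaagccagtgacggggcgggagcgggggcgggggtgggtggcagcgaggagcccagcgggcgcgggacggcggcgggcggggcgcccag
Dlx2: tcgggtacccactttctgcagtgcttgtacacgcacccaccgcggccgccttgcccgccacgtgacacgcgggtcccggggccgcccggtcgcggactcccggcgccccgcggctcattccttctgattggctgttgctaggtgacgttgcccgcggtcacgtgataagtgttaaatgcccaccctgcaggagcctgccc
CAGAC was found, on either strand, in 1 of the 6 stretches of these genes, the upstream one of Lhx2, with 2 matches. The motif was present in 35.5% of the 32851 promoter stretches of this length and in 16 of the 46 stretches of the 30 identity genes with an entry (34.8%). The homeodomain letters TAATTA, a palindrome, were in 3.73% of all stretches and in 2 of the 46. The POU octamer ATTTGCAT, or its reverse complement, was in 1.38% of all and in 0 of the 46. Neither motif matched the stretches of the downregulated genes. Their 6 stretches had a median GC content of 68.0% and a median of 21 CG dinucleotides, against 53.0% and 5 in all stretches and 52.5% and 8 in those of the identity genes. A match of letters is a description and not a binding site.

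The label of cortical neurons was checked against defining markers. The neuronal tubulin gene Tubb3 averaged 960 ± 31.4 FPKM in Control (SD, n = 4) and Map2, a dendritic protein gene, 106 ± 9.46 FPKM. The glutamate transporter gene Slc17a7 averaged 66.0 ± 4.82 FPKM and the vesicular GABA transporter gene Slc32a1 48.9 ± 3.39 FPKM in Control, so that markers of both neuron classes were present. Some defining markers of other cells were near 0, with 3 to 11 reads per library for P2ry12 of microglia, 0 to 3 for Cldn5 of endothelium and 5 to 25 for Pdgfra of oligodendrocyte precursors. Others were present in Control, with C1qa of microglia at 7.72 ± 1.37 FPKM, Olig1 of the oligodendrocyte lineage at 24.7 ± 1.48 FPKM and the progenitor genes Vim and Sox2 at 24.6 ± 1.36 and 20.5 ± 3.74 FPKM, so that the cultures also held transcripts of glia and progenitors. The astrocyte gene Gfap was present, at 47.7 ± 4.10 FPKM in Control.

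The libraries held 15052486 to 17381671 reads on annotated genes. Control replicate 1 stood apart from the other Control libraries, with 2.97% of its reads on mitochondrial genes against 2.12% to 2.36% in the others. The Tra_TGF libraries had 2.69% to 3.23% and the Trauma libraries 2.17% to 2.30%. The summed level of 9 astrocyte markers was 182 to 211 FPKM in Control, 238 to 298 in Trauma and 252 to 269 in Tra_TGF, and that of 9 markers of all neurons was 1754 to 1801, 1523 to 1648 and 1516 to 1565. The largest part of the neuronal sum was Tubb3, at 960, 842 and 739 FPKM on average in the same order. By gene, 7 of the 9 neuronal markers were higher and 2 lower in Tra_TGF than in Trauma, with a median log2 fold change of 0.10. The mitochondrial share thus did not overlap between Tra_TGF and Trauma, while Trauma lay within the Control range.

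Markers of other cells moved with the groups. In Trauma against Control, 6 of the 8 tested astrocyte markers, 6 of 9 progenitor and cycling markers, 3 of 6 oligodendrocyte markers and 2 of 5 microglia markers rose and 0 of these fell, and 4 of the 9 neuronal markers fell, where 3.30% of all tested genes rose and 2.70% fell. The median log2 fold change was 0.48 for the astrocyte, 1.28 for the progenitor and cycling, 0.41 for the oligodendrocyte and 0.55 for the microglia list. Vim, an intermediate filament gene of glia and progenitors, rose by 1.33 on the log2 scale (SE 0.06, adjusted p in limma 6.84e-07), from 24.6 ± 1.36 to 62.0 ± 3.73 FPKM, and Gfap by 0.86 (SE 0.10, adjusted p in limma 0.000336). The summed level of the progenitor and cycling list was 51.6 to 62.4 FPKM in Control, 100.2 to 114 in Trauma and 86.0 to 93.8 in Tra_TGF. That of 9 endothelial and mural genes, Cldn5 among them, was 3.98 to 4.25, 6.31 to 7.32 and 8.39 to 10.4 FPKM in the same order. Of these genes 3 were tested, and 1 rose and 0 fell both in Trauma against Control and in Tra_TGF against Trauma. From Trauma to Tra_TGF, 1 astrocyte marker rose and 3 fell, and 1 marker each of the microglia, oligodendrocyte and progenitor lists fell. Of the 9 neuronal markers, 2 rose and 1 fell. In this comparison 4.40% of all tested genes rose and 7.71% fell. The part of these markers and of the mitochondrial share in the results below was not tested.

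In the Control group the identity genes spanned from 0.0998 to 111 FPKM. The highest was Mef2c, a transcription factor gene of maturing excitatory neurons, at 111 ± 8.04 FPKM (SD, n = 4), followed by Rbfox3, which encodes the nuclear antigen NeuN, at 55.1 ± 4.84 FPKM. Lhx2, a cortical selector gene, measured 41.2 ± 3.39 FPKM, and Pou3f1 37.8 ± 5.69 FPKM. Their ranges overlapped, at 37.1 to 44.0 and 32.4 to 44.8 FPKM. The next in order, Neurod2, Gad2, Pou3f3, Emx1 and Gad1, lay between 29.5 and 32.5 FPKM on average, and their library ranges overlapped one another except for Neurod2, Gad2 and Gad1, where the lowest Neurod2 and Gad2 libraries (30.6 and 30.8 FPKM) stood above the highest Gad1 library (29.8 FPKM).

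Among deep-layer genes, Tbr1 (15.6 ± 0.311 FPKM) and Bcl11b (14.2 ± 0.764 FPKM), which encode regulators of corticothalamic and subcerebral neurons, were well above Sox5 (2.42 ± 0.0982), Etv1 (2.05 ± 0.170), Foxp2 (0.981 ± 0.167) and Fezf2 (0.832 ± 0.156 FPKM) in Control. Among upper-layer genes, the 3 Pou3f genes led with Pou3f1, Pou3f3 (31.8 ± 3.44) and Pou3f2 (12.5 ± 0.445 FPKM), then Cux2 (11.3 ± 0.766), Cux1 (9.43 ± 0.311), Foxp1 (2.54 ± 0.263) and the layer 4 gene Rorb (0.701 ± 0.198 FPKM). Eomes, the intermediate progenitor gene, was at 0.83 ± 0.122 FPKM on 45 to 79 reads over all libraries. Among interneuron genes, Dlx1 (24.3 ± 1.33) and Dlx2 (11.5 ± 0.971) were above Dlx5 (6.93 ± 0.284) and Dlx6 (2.20 ± 0.368 FPKM). The MGE genes Maf (10.8 ± 0.692) and Lhx6 (10.6 ± 0.369) were above Sox6 (2.61 ± 0.255) and Nkx2-1 (1.29 ± 0.181 FPKM). Lhx8, a gene of ventral forebrain cholinergic and MGE cells, had 1 to 11 reads per library and was too low to test. Reln, which encodes the secreted protein reelin, measured 9.41 ± 0.176 FPKM, while the CGE genes Prox1 (2.02 ± 0.393), Htr3a (1.63 ± 0.282) and Vip (1.51 ± 0.160 FPKM) were low.

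**Figure D1:**
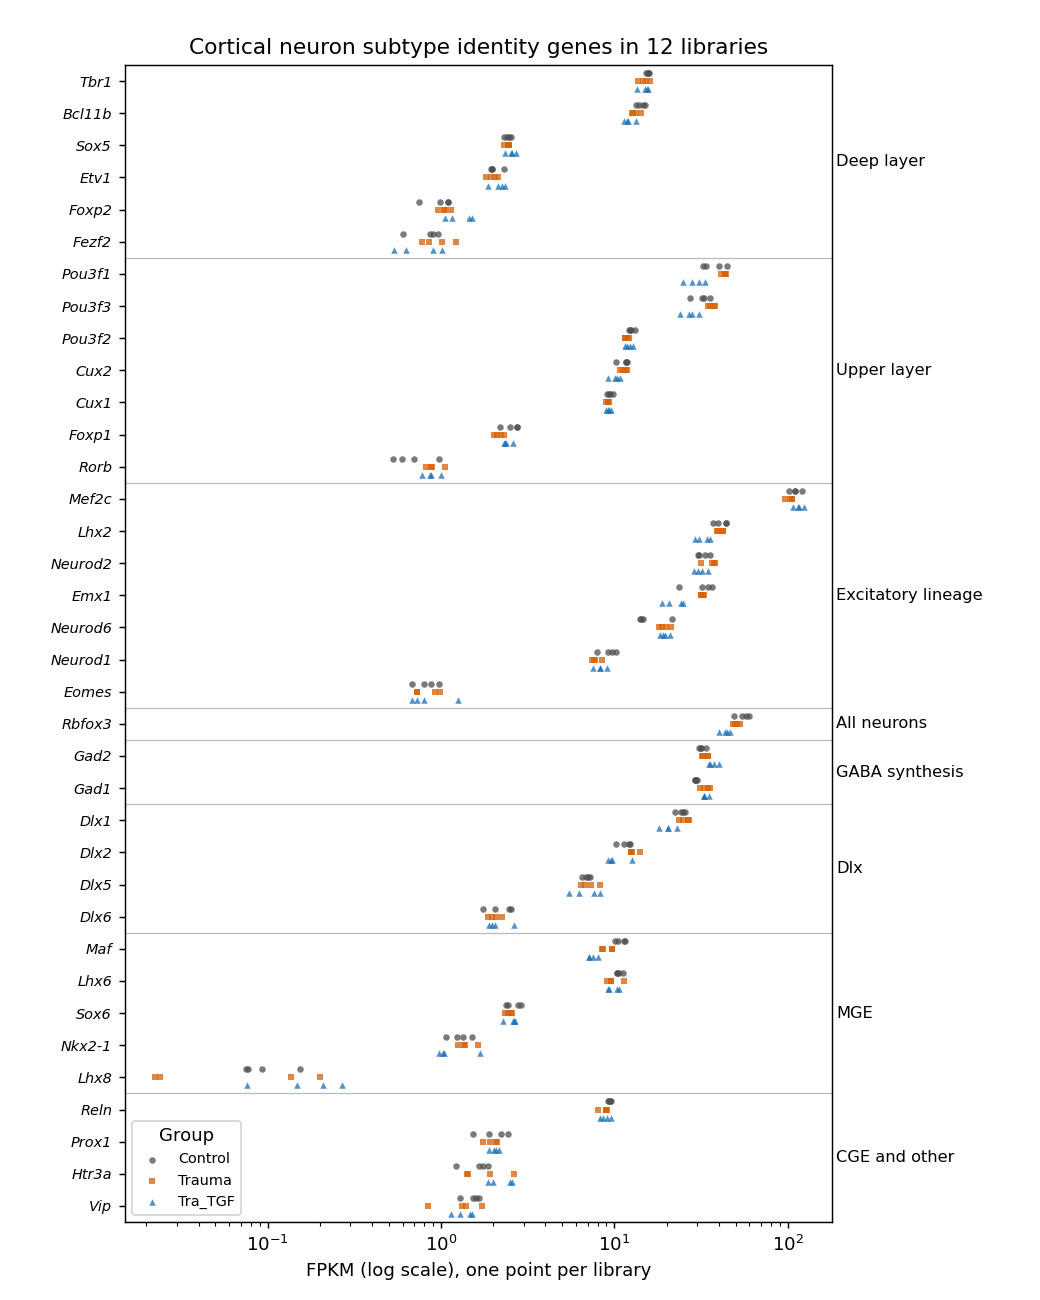
FPKM of the 36 identity genes on a log axis, one point per library, with 4 libraries for each of Control, Trauma and Tra_TGF, ordered by role and Control level. The levels run from under 1 FPKM for Lhx8, Rorb, Eomes, Fezf2 and Foxp2 in Control to above 100 FPKM for Mef2c, and most genes keep nearly the same position in the 3 groups.

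The first comparison asks whether injury alone changed these genes. After scratch injury, Gad1 rose and Maf fell, and these were the 2 of 35 tested identity genes that differed between Trauma and Control (limma, Benjamini-Hochberg adjusted p of at most 0.05, 5.71%). Over all 15016 genes with a mean of at least 0.5 FPKM, 6.00% differed, 3.30% upwards and 2.70% downwards, so the identity genes were near the background. Because whole cultures were sequenced, fewer cells of a type and less RNA per cell cannot be told apart.

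Gad1 (ENSMUSG00000070880, chromosome 2 of GRCm38 from 70553072 to 70602014), which encodes the larger GABA-synthesizing enzyme, measured 29.5, 29.8, 29.4 and 29.3 FPKM in the 4 Control libraries and 33.1, 31.0, 35.8 and 34.6 FPKM in the 4 Trauma libraries. Each Trauma library lay above each Control library, a log2 fold change of 0.19 on the log2(FPKM + 0.1) scale (standard error, SE, 0.04, adjusted p in limma 0.0243). Maf (ENSMUSG00000055435, chromosome 8 from 115682942 to 115707794), a transcription factor gene of MGE interneurons, measured 10.0, 11.5, 10.5 and 11.3 FPKM in Control and 9.70, 8.57, 8.52 and 9.69 FPKM in Trauma. The groups did not overlap, and Maf fell by 0.25 on the log2 scale (SE 0.06, adjusted p in limma 0.0447).

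None of the 20 excitatory genes passed in this comparison (0 by limma and 0 with voom on recovered reads, with 4 of 20 at an unadjusted p of at most 0.05, where 20.0% of all tested genes were). The median log2 fold change of the 35 genes was −0.0002, against −0.01 over all tested genes. The groups did not overlap for 4 identity genes, Gad1 and Dlx2 upwards and Maf and Reln downwards, where 12.9% of all tested genes did not overlap, 6.25% upwards and 6.69% downwards. After each library was corrected for GC content, 3 identity genes passed, Gad1 upwards and Maf and Rbfox3 downwards, against 8.49% of all genes in that fit, 3.31% upwards and 5.18% downwards. Both calls were near the threshold. With quantile normalization the calls were 1 up and 0 down, where 3.06% of all tested genes rose and 1.84% fell. Gad1 lost its call without Control replicate 3 or 4 or Trauma replicate 3 or 4, and Maf kept its call only without Control replicate 1, Trauma replicate 1 or Tra_TGF replicate 3, so that 0 identity genes were called without the 4 libraries named for Gad1, where 3.26% to 4.29% of all tested genes were called.

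Neurod6, which marks postmitotic excitatory neurons, measured 21.6, 14.6, 14.0 and 14.3 FPKM in Control, 21.3, 18.8, 19.9 and 18.0 in Trauma, and 19.5, 20.8, 19.0 and 18.3 in Tra_TGF. Control replicate 1, the library that stood apart, was above all other libraries, while the other Control libraries were below all 8 injured ones. With all libraries Neurod6 did not pass, at an adjusted p in limma of 0.184 in Trauma against Control and 0.116 in Tra_TGF against Control. Without Control replicate 1, a log2 fold change of 0.44 was found for both Trauma against Control (SE 0.06, adjusted p in limma 0.00195) and Tra_TGF against Control (SE 0.06, adjusted p in limma 0.000651). Of all tested genes 5.83% and 22.6% were called in that refit. The library left out holds the outlying value of this same gene, so these p-values depend on that choice and are not a test of the change.

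The second comparison asks what TGF-β1 changed in scratched neurons. In Tra_TGF against Trauma, 7 of the 35 tested identity genes were downregulated (20.0%) and 0 were upregulated. Of all tested genes 12.1% differed, 7.71% downwards and 4.40% upwards. The 7 genes came from both classes of the list, with 4 of 20 excitatory genes (Pou3f1, Emx1, Pou3f3 and Lhx2) and 3 of 14 tested inhibitory genes (Dlx1, Dlx2 and Maf). All encode transcription factors, as do most of the identity genes. The median over the 35 genes was 0.00345 on the log2 scale, against 0.0025 over all tested genes, with 18 genes above 0 and 17 below, and after GC correction it was −0.04 against 0.01. At an unadjusted p of at most 0.05 there were 12 of 35 identity genes, where 29.2% of all tested genes were. With voom on recovered reads 10 were called down and 2 up (Gad2 and Mef2c), where 9.72% of all tested genes were down and 7.29% up.

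Pou3f1 (ENSMUSG00000090125, chromosome 4 from 124656807 to 124660655), a POU factor gene of upper-layer neurons, measured 43.3, 43.9, 41.2 and 43.4 FPKM in Trauma and 33.3, 28.2, 30.6 and 24.7 FPKM in Tra_TGF. Each Tra_TGF library lay below each Trauma library, and the level fell by 32.3% (log2 fold change −0.56, SE 0.10, adjusted p in limma 0.00958). Control spread widely over both, at 32.4, 44.8, 40.0 and 33.9 FPKM. The noncoding gene Gm2164 overlaps 8.57% of the exon bases of Pou3f1 on the opposite strand, and as the strand setting of the counting is not given in the sources used here, reads in the overlap cannot be told apart. Gm2164 itself averaged 2.71 FPKM.

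Pou3f3 (ENSMUSG00000045515, chromosome 1 from 42695768 to 42703176), a related POU factor gene, measured 35.7, 37.9, 34.7 and 37.4 FPKM in Trauma and 30.7, 28.2, 27.0 and 23.8 FPKM in Tra_TGF. The groups were again apart, with a fall of 24.9% (log2 fold change −0.41, SE 0.08, adjusted p in limma 0.0136). The paralog Pou3f2 did not pass, at 11.8 ± 0.361 FPKM in Trauma and 12.1 ± 0.575 in Tra_TGF (SD, n = 4). The ratio of Pou3f1 to Pou3f2 within a library was 3.56 to 3.83 in Trauma and 2.14 to 2.83 in Tra_TGF, and the ratio of Pou3f3 to Pou3f2 was 3.0 to 3.31 and 2.05 to 2.60. In Control these ratios were 2.59 to 3.64 and 2.17 to 2.89, so that the Trauma libraries held the highest Pou3f3 ratios of the series.

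Emx1 (ENSMUSG00000033726, chromosome 6 from 85187438 to 85204462), a homeobox gene of the dorsal cortical lineage, measured 32.5, 31.5, 31.6 and 33.0 FPKM in Trauma and 24.8, 20.6, 24.3 and 18.8 FPKM in Tra_TGF. It fell by 31.5% with no overlap (log2 fold change −0.55, SE 0.12, adjusted p in limma 0.0181). Lhx2 (ENSMUSG00000000247, chromosome 2 from 38339281 to 38369733) measured 42.3, 42.5, 39.8 and 39.1 FPKM in Trauma and 35.5, 30.8, 34.4 and 29.0 FPKM in Tra_TGF. This was a fall of 20.9% with no overlap (log2 fold change −0.34, SE 0.07, adjusted p in limma 0.0148). For both genes Control replicate 1 was the lowest Control library, at 23.7 FPKM for Emx1 against 31.9 to 36.6 in the others and at 37.1 FPKM for Lhx2 against 39.7 to 44.0.

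Among the Dlx genes, which specify GABAergic neurons and lie in convergent pairs, Dlx1 and Dlx2 fell and Dlx5 and Dlx6 did not pass. Dlx1 (ENSMUSG00000041911, chromosome 2 from 71528113 to 71533981) measured 23.7, 24.9, 26.4 and 26.8 FPKM in Trauma and 20.4, 18.0, 23.0 and 20.5 FPKM in Tra_TGF. The groups did not overlap, with a fall of 19.6% (log2 fold change −0.32, SE 0.07, adjusted p in limma 0.0176). Dlx1as overlaps 6.21% of the Dlx1 exon bases on the opposite strand and averaged 3.67 FPKM.

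Dlx2 (ENSMUSG00000023391, chromosome 2 from 71543408 to 71546754), the neighbour of Dlx1, measured 14.0, 12.5, 12.7 and 12.5 FPKM in Trauma and 12.6, 9.16, 9.63 and 9.54 FPKM in Tra_TGF. Tra_TGF replicate 1 lay within the Trauma range while the other 3 lay below it, and the log2 fold change was −0.34 (SE 0.10, adjusted p in limma 0.038). Dlx5 measured 8.27, 7.32, 6.77 and 6.38 FPKM in Trauma and 8.30, 7.65, 6.25 and 5.44 FPKM in Tra_TGF. Dlx6 was at 2.04 ± 0.165 and 2.13 ± 0.338 FPKM (SD, n = 4), and for both genes the groups overlapped.

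Maf measured 7.17, 7.15, 8.00 and 7.48 FPKM in Tra_TGF, all below the Trauma libraries, which were themselves below Control. It fell by 0.29 from Trauma to Tra_TGF on the log2 scale (SE 0.06, adjusted p in limma 0.0182). The other MGE genes did not pass, with Lhx6 at 9.87 ± 1.02 FPKM in Trauma and 9.90 ± 0.699 in Tra_TGF, Sox6 at 2.47 ± 0.0969 and 2.55 ± 0.18, and Nkx2-1 at 1.4 ± 0.158 and 1.17 ± 0.332 (SD, n = 4).

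**Figure D2:**
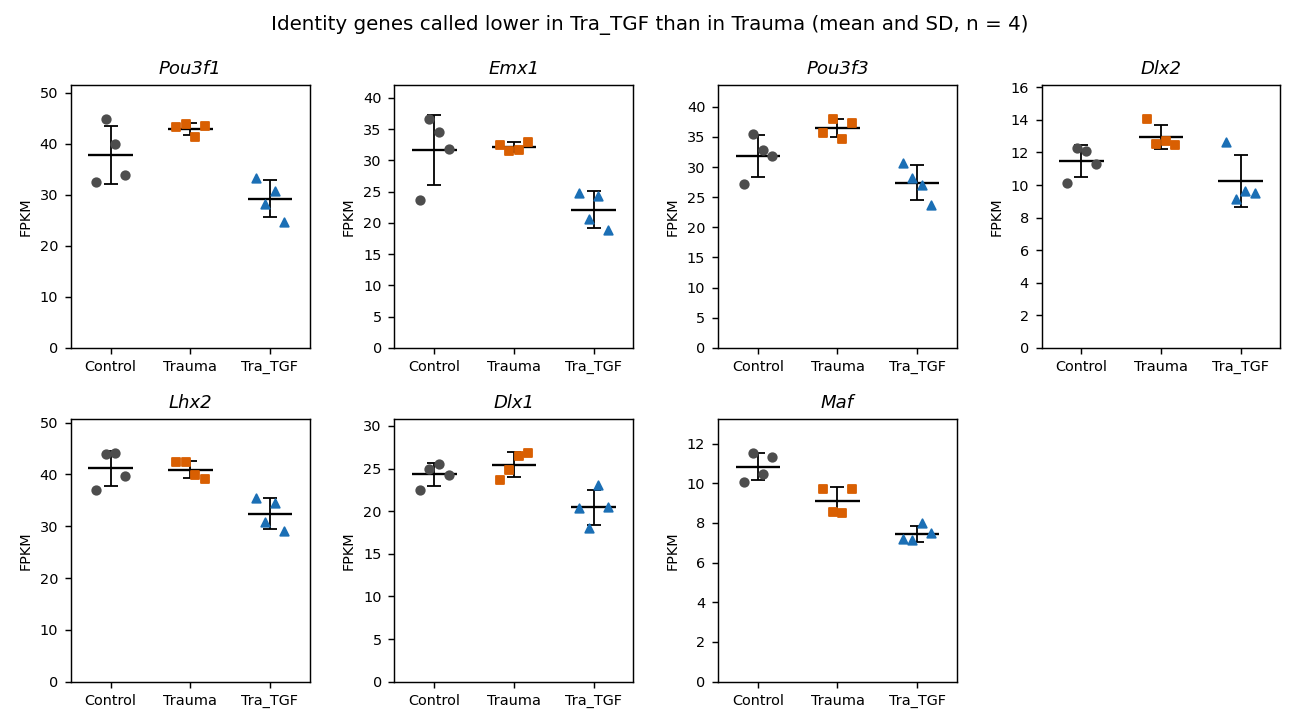
FPKM of the 7 identity genes called lower in Tra_TGF than in Trauma, one point per library, with the mean and SD of 4 libraries and axes that start at 0. Each Tra_TGF library lies below each Trauma library for 6 of the genes, while Dlx2 replicate 1 of Tra_TGF, at 12.6 FPKM, lies within the Trauma range, and Maf steps down from Control through Trauma to Tra_TGF.

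The groups did not overlap for 10 identity genes in this comparison, 7 lower and 3 higher, where 22.2% of all tested genes did not overlap, 12.0% lower and 10.2% higher. The 3 higher genes, Gad2, Mef2c and Foxp1, did not pass the test. Gad2 measured 32.4, 31.9, 34.8 and 34.6 FPKM in Trauma and 35.2, 37.8, 35.6 and 40.2 FPKM in Tra_TGF. Mef2c measured 106, 106, 103 and 97.0 FPKM in Trauma and 117, 124, 107 and 115 FPKM in Tra_TGF. Rbfox3 was lower without overlap, at 50.7, 48.3, 49.4 and 53.1 FPKM in Trauma and 43.3, 40.4, 46.3 and 44.8 FPKM in Tra_TGF, with an adjusted p of 0.0532 in limma.

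Fold changes in this comparison followed the base composition of the transcripts. Across 14699 tested genes, which are not independent, Spearman's rho between the log2 fold change and GC content was −0.47, and across the 35 identity genes it was −0.73. Of the 7 downregulated genes, 6 had a GC content above the median of 49.6% of all tested genes, from 51.1% for Pou3f3 to 66.8% for Emx1, and Maf was below it at 47.4%. After each library was corrected for GC content, 4 of the 7 remained called, all downwards, against 5.57% of all genes in that fit, 1.80% upwards and 3.77% downwards. They were Pou3f1 (log2 fold change −0.28, adjusted p in limma 0.0282), Pou3f3 (−0.38, adjusted p in limma 0.0244), Dlx1 (−0.22, adjusted p in limma 0.037) and Maf (−0.32, adjusted p in limma 0.0198). Emx1 (−0.18, adjusted p in limma 0.103), Lhx2 (−0.17, adjusted p in limma 0.0778) and Dlx2 (−0.18, adjusted p in limma 0.223) no longer passed. The values of Maf and Pou3f3 moved little with the correction, while those of Pou3f1, Emx1, Lhx2 and Dlx2 moved by over 1.5 times. What the relation with GC content comes from was not tested.

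**Figure D3:**
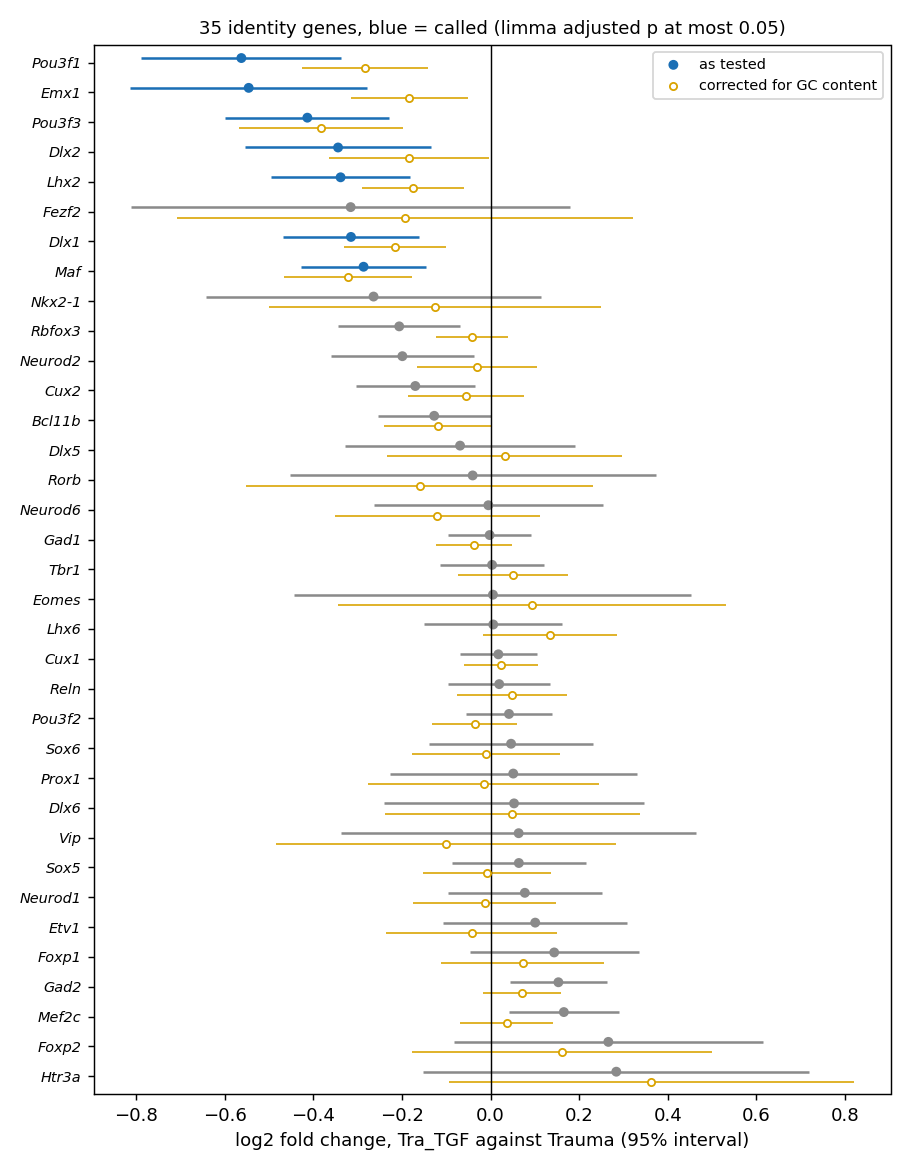
Log2 fold changes of the 35 tested identity genes between Tra_TGF and Trauma with 95% intervals from limma, as tested (filled points, blue where called) and after correction of each library for GC content (open points). Pou3f1 moves from −0.56 to −0.28 and Emx1 from −0.55 to −0.18, while Pou3f3 and Maf stay close to −0.41 and −0.29.

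Leaving out single libraries gave between 4 and 10 called genes, while the share of all tested genes called ran from 4.34% to 16.9%. It was 4 without Trauma replicate 4 (Emx1, Lhx2, Pou3f1 and Pou3f3) and 4 without Tra_TGF replicate 2 (Dlx1, Lhx2, Pou3f1 and Pou3f3), and 10 without Control replicate 1, which adds Rbfox3 downwards and Gad2 and Mef2c upwards. Pou3f1, Pou3f3 and Lhx2 passed without each of the 12 libraries in turn. Emx1 did not pass without Tra_TGF replicate 2 or 4, Maf without Trauma replicate 1 or 4 or Tra_TGF replicate 2, and Dlx1 without Trauma replicate 4. Dlx2 was the least stable, and passed only without Control replicate 1, 2 or 3 or Tra_TGF replicate 1. With quantile normalization 7 fell and 2, Gad2 and Mef2c, rose, where 6.17% of all tested genes fell and 7.49% rose.

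The third comparison sets injured and treated cultures against uninjured ones and shares its libraries with both comparisons above. Between Tra_TGF and Control, 9 of the 35 identity genes differed (25.7%), with 2 higher and 7 lower, where 16.6% of all tested genes differed, 6.14% higher and 10.4% lower. Both GABA synthesis genes rose, and Maf, Rbfox3, Lhx2, Emx1, Pou3f1, Dlx1 and Bcl11b fell. By class, 4 of 20 excitatory genes fell, and 2 of 14 tested inhibitory genes rose and 2 fell. The median over the 35 genes was −0.07 on the log2 scale, against −0.01 over all tested genes, and 24 of the 35 were below 0.

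Gad1 measured 33.1, 33.0, 33.0 and 35.0 FPKM in Tra_TGF, all above the 4 Control libraries, with a log2 fold change of 0.19 (SE 0.04, adjusted p in limma 0.0129). Gad2 (ENSMUSG00000026787, chromosome 2 from 22622205 to 22693874), which encodes the smaller GABA-synthesizing enzyme, measured 33.9, 31.4, 30.8 and 31.4 FPKM in Control. All Tra_TGF libraries were above these, with a rise of 16.5% (log2 fold change 0.22, SE 0.05, adjusted p in limma 0.012). After GC correction the values were 0.13 for Gad2 (adjusted p in limma 0.0487) and 0.13 for Gad1 (adjusted p in limma 0.0512), so that Gad1 no longer passed.

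Rbfox3 (ENSMUSG00000025576, chromosome 11 from 118489762 to 118911597) measured 48.7, 60.0, 57.3 and 54.2 FPKM in Control and 43.3, 40.4, 46.3 and 44.8 FPKM in Tra_TGF, each below the lowest Control library. It fell by 20.5% (log2 fold change −0.33, SE 0.06, adjusted p in limma 0.00516). Bcl11b (ENSMUSG00000048251, chromosome 12 from 107910403 to 108003602), which encodes CTIP2, measured 13.3, 14.7, 15.0 and 13.9 FPKM in Control, 14.2, 13.3, 12.8 and 12.7 in Trauma and 11.3, 11.9, 13.3 and 12.1 in Tra_TGF. The Tra_TGF and Control libraries did not overlap, with a narrow gap between the highest Tra_TGF and the lowest Control library, and the log2 fold change was −0.23 (SE 0.06, adjusted p in limma 0.0205). It was the 1 of 6 deep-layer genes that passed in any comparison.

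Maf had the strongest fall from Control, of 30.9% (log2 fold change −0.53, SE 0.06, adjusted p in limma 0.000362), and its 3 groups were fully apart. Lhx2 fell by 0.34 (SE 0.07, adjusted p in limma 0.00788) with no overlap, and Emx1 fell by 0.51 (SE 0.12, adjusted p in limma 0.0164). Pou3f1 fell by 0.37 (SE 0.10, adjusted p in limma 0.0319) and Dlx1 by 0.25 (SE 0.07, adjusted p in limma 0.0299). For Emx1, Pou3f1 and Dlx1 the Tra_TGF libraries overlapped Control, in each case through Control replicate 1. The groups did not overlap for 6 of the 35 identity genes, 2 higher and 4 lower, where 18.5% of all tested genes did not overlap, 7.94% higher and 10.6% lower.

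Correction for GC content left 7 called genes in this comparison, 1 up and 6 down, against 13.7% of all genes in that fit, 4.56% upwards and 9.14% downwards. It ended the calls of Emx1, Pou3f1 and Gad1, and Neurod1, a factor gene of newborn excitatory neurons, was added. With quantile normalization 2 genes rose and 4 fell, where 7.55% of all tested genes rose and 6.11% fell. Without Control replicate 2, Control replicate 3 or Tra_TGF replicate 2, 5 genes remained, the same 5 each time (Gad1, Gad2, Lhx2, Maf and Rbfox3), where 9.92% to 10.2% of all tested genes were called. Without Control replicate 1 there were 11, where 22.6% were called, with Neurod6 and Pou3f3 added. Of the others, Emx1, Pou3f1, Dlx1 and Bcl11b each lost the call when Control replicate 2, Control replicate 3 or Tra_TGF replicate 2 was left out. Dlx1 also lost it without Control replicate 4 or Tra_TGF replicate 1 or 4, Pou3f1 without Tra_TGF replicate 4, and Bcl11b without Tra_TGF replicate 1.

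**Figure D4:**
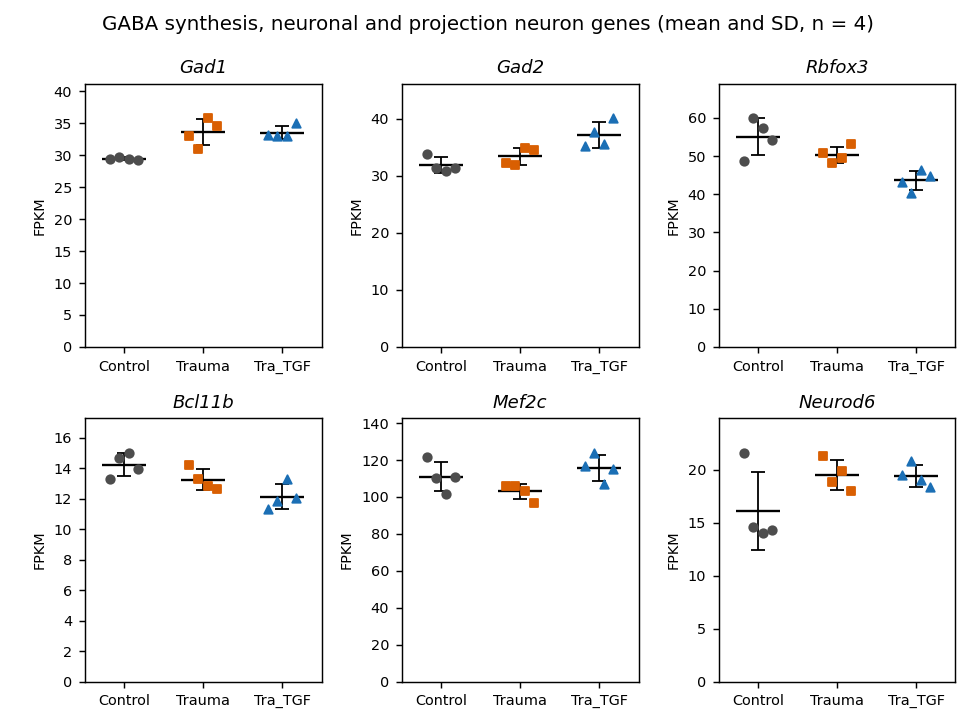
FPKM of Gad1, Gad2, Rbfox3, Bcl11b, Mef2c and Neurod6 in each library, with the mean and SD of 4 libraries and axes that start at 0. Both Gad genes are above Control in all 4 Tra_TGF libraries, Rbfox3 and Bcl11b are below it, and Control replicate 1, at 21.6 FPKM for Neurod6, lies apart from the other 3 Control libraries.

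The same 35 genes were set against GC content in all comparisons. Spearman's rho was 0.23 for Trauma against Control, −0.73 for Tra_TGF against Trauma and −0.59 for Tra_TGF against Control, as a description over genes. Over all 14699 genes the values were 0.09, −0.47 and −0.36. The comparisons share libraries, so these values are not independent of one another.

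**Figure D5:**
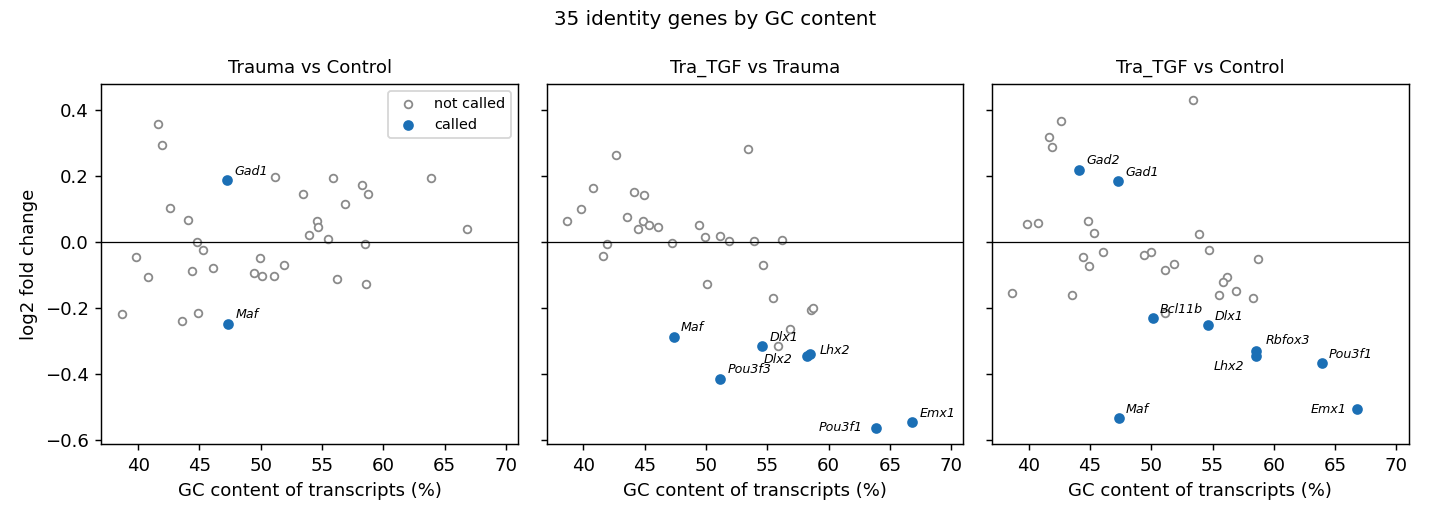
Log2 fold change of the 35 tested identity genes against the GC content of their transcripts in percent, with 1 panel per comparison and filled points for called genes. In Tra_TGF against Trauma the genes run downwards from left to right, with Emx1 at 66.8% GC at the lower right and Maf and Pou3f3 below the other genes of similar GC content.

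Ratios of genes within a library compare members of a class without a scale between libraries. Maf, Dlx1, Dlx2 and Emx1 had passed above, so their ratios restate those falls and are not a separate check. The ratios also keep the relation with GC content, which was 47.4% for Maf, 54.6% for Dlx1 and 58.3% for Dlx2 against 44.1% for Gad2, and 66.8% for Emx1 against 58.7% for Neurod2. The ratio of Maf to Gad2 was 0.297 to 0.366 in Control, 0.245 to 0.30 in Trauma and 0.186 to 0.225 in Tra_TGF. The ratio of Dlx1 to Gad2 was 0.664 to 0.83, 0.731 to 0.780 and 0.477 to 0.646, and Tra_TGF lay below both other groups. For Dlx2 to Gad2 the Tra_TGF libraries were at 0.237 to 0.358, below the Trauma libraries at 0.361 to 0.434, and the ranges of Control (0.30 to 0.393) and Tra_TGF overlapped. On the excitatory side, the ratio of Emx1 to Neurod2, the gene of a factor of postmitotic excitatory neurons, was 0.776 to 1.04 in Control, 0.824 to 0.996 in Trauma and 0.622 to 0.762 in Tra_TGF. For this ratio too Tra_TGF lay below both other groups. The ratio of Gad1 to Neurod2, between the classes, overlapped among all groups, at 0.837 to 0.965 in Control, 0.812 to 1.13 in Trauma and 0.956 to 1.16 in Tra_TGF.

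The remaining genes passed in none of the 3 comparisons. Of the deep-layer genes these were Tbr1 (14.9 ± 0.928 FPKM in Trauma and 14.9 ± 0.911 in Tra_TGF), Sox5 (2.42 ± 0.0739 and 2.54 ± 0.15), Etv1 (1.98 ± 0.132 and 2.14 ± 0.206), Foxp2 (1.05 ± 0.0721 and 1.3 ± 0.225) and Fezf2 (0.967 ± 0.197 and 0.769 ± 0.225). Of the upper-layer genes these were Cux1 (9.12 ± 0.145 and 9.23 ± 0.286), Cux2 (11.4 ± 0.507 and 10.1 ± 0.650), Foxp1 (2.17 ± 0.119 and 2.41 ± 0.135), Rorb (0.910 ± 0.104 and 0.881 ± 0.0895) and Pou3f2. Foxp1 encodes a forkhead factor of projection neurons, and each Tra_TGF library was above each Trauma library without passing the test.

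Of the excitatory lineage genes, Neurod1 measured 9.27 ± 0.954 FPKM in Control, 7.83 ± 0.474 in Trauma and 8.27 ± 0.628 in Tra_TGF, and Neurod2 32.5 ± 2.39, 36.1 ± 2.96 and 31.4 ± 2.48 FPKM. Eomes measured 0.844 ± 0.133 in Trauma and 0.864 ± 0.261 in Tra_TGF. The CGE and other interneuron genes were Reln (8.76 ± 0.469 and 8.88 ± 0.521 FPKM), Prox1 (1.96 ± 0.161 and 2.04 ± 0.113), Vip (1.32 ± 0.366 and 1.35 ± 0.165) and Htr3a (1.85 ± 0.580 and 2.22 ± 0.350), with none of the 4 passing in limma (0 at an unadjusted p of at most 0.05 in each comparison, and 0 with voom). Low genes carried wide errors, and for Fezf2, Eomes, Rorb, Nkx2-1, Vip and Htr3a, each at 26 to 205 reads per library, small changes were not detectable at this depth.

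Other identity genes of the same classes, from a list of 50 of which 48 were tested, went in both directions. In Trauma against Control 4 rose and 6 fell, in Tra_TGF against Trauma 5 rose and 6 fell, and in Tra_TGF against Control 5 rose and 11 fell. These were 20.8%, 22.9% and 33.3% of the 48 genes, against 6.00%, 12.1% and 16.6% of all tested genes. Npy, a neuropeptide gene of interneurons, rose by 0.58 on the log2 scale in Trauma against Control (SE 0.08, adjusted p in limma 0.00181), from 32.5 ± 2.32 to 48.8 ± 4.89 FPKM. In Tra_TGF against Control, Nrgn, which encodes a calmodulin-binding protein of excitatory neurons, fell by 0.64 (SE 0.08, adjusted p in limma 0.000548), from 457 ± 55.0 to 292 ± 25.3 FPKM. The deep-layer gene Pcp4 fell by 0.93 (SE 0.26, adjusted p in limma 0.0325), on 22 to 70 reads per library, and its groups overlapped.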

How the data were processed

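RNA of 12 libraries was sequenced by the authors as paired ends on an Illumina instrument and aligned with HISAT2 2.0.5 to mm10, per the labels and the study's methods, with reads counted per gene by featureCounts. The deposited values are FPKM, which the authors calculated from gene length and read count, and the gene length was deposited beside them. Multiplying both gave whole reads for 100% of genes (tolerance 0.01 reads), at 15052486 to 17381671 reads per library. The median-of-ratios factor was 1.006 in every library, so the deposited scale already held such a normalization. The strand setting is not given in the sources used here.

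Genes with a mean of at least 0.5 FPKM (15016) were tested on log2(FPKM + 0.1) with limma 3.58.1 in R 4.3.3 (1 fit of 12 libraries, moderated with a trend, Benjamini-Hochberg adjustment per comparison, threshold 0.05), and the procedure was tested on simulated data. A fold change on this scale understates that of low genes. GC content came from the transcripts of GENCODE and was known for 97.9% of tested genes, and correction used loess with span 0.3. The alternatives were other pseudocounts, filters, scalings and moderation, gene length and GC correction, a replicate block, fits of 2 groups, voom on recovered reads, and leaving out each library. Each identity gene is given by level, with a fold change where it passed. Genes of other lists are named only where they passed with a log2 fold change of at least 0.5 in either direction, or as defining markers, and not every gene that passed is named. A further gene that passed is not reported here. The genes and lists were chosen with earlier results of these data known. Columns of other samples numbered 0. Tables and figures were made with Python 3.11.15, pandas 2.3.3, numpy 2.4.6 and matplotlib 3.10.9.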

Additional observations from a re-analysis of the deposited data

Results flagged for a closer look

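Among 105 gene and group combinations of 4 libraries, 7 held a library whose gap to the nearest other one was large against the group's range by Dixon's test at the 95% level, and chance gives about 1 in 20. Neurod6 was at 21.6 FPKM in Control replicate 1, against 14.0 to 14.6 in the other Control libraries. Etv1 was at 2.30 FPKM in Control replicate 4, against 1.95 to 1.97, and Cux2 at 10.2 FPKM in the same library, against 11.6 to 11.8. Dlx2 was at 14.0 FPKM in Trauma replicate 1, against 12.5 to 12.7, and at 12.6 FPKM in Tra_TGF replicate 1, against 9.16 to 9.63. Gad1 was at 35.0 FPKM in Tra_TGF replicate 4, against 33.0 to 33.1, and Nkx2-1 at 1.67 FPKM in that library, against 0.970 to 1.04. With all libraries Dlx2 and Cux2 did not pass in Tra_TGF against Control (adjusted p in limma 0.253 and 0.0986). Without Tra_TGF replicate 1, Dlx2 passed (log2 fold change −0.27, adjusted p in limma 0.0260), where 13.6% of all tested genes were called. Without Control replicate 4, Cux2 passed (−0.21, adjusted p in limma 0.0349), where 13.5% were called. Each library was left out for its value of that same gene, so these p-values depend on the choice and are not a test of the change.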

How the results depend on the processing

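Over 486 refits of the 18 fold changes that passed, 0 changed direction, 395 stayed past the threshold and 91 did not. The number of identity genes called in Trauma against Control was 2, and became 0 without the filter on low genes (7 at an unadjusted p of at most 0.05) or in a fit of the 2 groups alone (5 unadjusted), 1 with quantile normalization or without a trend, and 0 to 3 when single libraries were left out. The share of all genes called was 6.00%. In these settings it became 0.81% (6.93% unadjusted), 3.45% (18.7% unadjusted), 4.90%, 5.43% and 3.26% to 5.83%. In Tra_TGF against Trauma the number was 7, and became 0 without the filter (13 unadjusted), 4 with GC correction, 12 with voom, and 4 to 10 without single libraries. The share of all genes was 12.1%, and became 0.47% (9.21% unadjusted), 5.57%, 17.0% and 4.34% to 16.9%. In Tra_TGF against Control the number was 9, and became 3 without the filter and 5 to 11 without single libraries. The share of all genes was 16.6%, and became 2.00% and 9.92% to 22.6%. The lost calls without the filter came with many more genes at or near 0 in the fit, and their cause was not tested. Between groups, deviations from the group mean correlated at −0.009 to 0.076 for same-numbered libraries and at −0.091 to 0.073 for differently numbered ones. These small values do not settle whether replicate numbers pair the libraries. With the replicate block the counts were 1, 6 and 9 in the order above, where 5.23%, 10.1% and 15.1% of all genes were called. With the replicate block and GC correction they were 4, 5 and 5, and with the replicate block and gene length correction 1, 5 and 9. The fall of Maf in Trauma against Control was lost in 9 of 12 refits without a library, and that of Dlx2 in Tra_TGF against Trauma in 8 of 12. Changes of genes with few reads, such as Lhx8 and Fezf2, were limited by depth.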
